A study of Mus musculus with 4 samples.

Results

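Pkm and 9 other genes of glycolysis (Aldoa, Aldoc, Ldha, Ldhb, Eno1, Eno2, Gpi1, Pgk1 and Hk1) are described here in single cells of the embryonic mouse brain. The 10 genes were chosen by symbol. All 10 are among the 27998 genes of the Illumina matrices and the 12561 genes of the Nanopore matrices, where they hold 29 of 31986 isoforms. The cells came from hippocampus, cortex and sub ventricular zone of the mouse strain C57BL/6 at embryonic day 18, and no treatment is labelled. They were captured in droplets in 1 emulsion, which was split into aliquots of 190 and 951 cells, and each aliquot was sequenced by Illumina (short reads from the 3′ end) and by Nanopore (full-length cDNA). A unique molecular identifier (UMI) stands for 1 captured RNA molecule in both. Cells with at least 1400 genes by Illumina were kept, 186 and 935 of them, with 1809081 and 8295650 Illumina UMIs and 993220 and 4889148 isoform-assigned Nanopore UMIs. The 2 aliquots are samples of 1 cell suspension, so each p-value below covers the spread between aliquots and not that between animals.

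Glycolysis splits glucose into pyruvate, and mammals encode several of its enzymes as isozymes that differ between tissues. Pyruvate kinase, the enzyme of the last step, is made from Pkm in an M1 and an M2 form by a choice between 2 exons of which each mRNA holds only one. The M2 form is known from dividing and embryonic cells, and the M1 form from differentiated cells such as neurons.

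The exons that set these forms apart are printed below, since the main isoform result counts molecules that hold one or the other. Pkm lies on chr9:59656368-59679375, plus strand (GRCm38). Pkm-201, the M2 form, has chr9:59675568-59675734 as exon 9 of its 11, and Pkm-202, the M1 form, has chr9:59675029-59675195 in that place. Both exons are coding and 167 bases long. They differ at 64 positions, which are in capitals, and are the same at 61.7% of positions. The sequences are from the Gencode transcripts of that build, 5′ to 3′.
Pkm-201: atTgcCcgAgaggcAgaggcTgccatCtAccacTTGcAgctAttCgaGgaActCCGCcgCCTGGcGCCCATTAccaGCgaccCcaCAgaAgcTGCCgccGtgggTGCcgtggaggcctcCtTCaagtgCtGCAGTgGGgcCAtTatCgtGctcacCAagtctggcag
Pkm-202: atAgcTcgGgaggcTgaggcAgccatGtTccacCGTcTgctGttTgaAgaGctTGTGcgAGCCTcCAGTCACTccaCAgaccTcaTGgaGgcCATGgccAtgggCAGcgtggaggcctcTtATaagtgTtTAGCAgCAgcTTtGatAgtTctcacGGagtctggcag

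The cells were grouped into 8 classes by clustering on Illumina genes with the glycolysis genes left out, so that the 10 genes had no part in defining the classes. Each class was named from markers and is called radial glia-like, cycling progenitor-like, intermediate progenitor-like, immature or mature glutamatergic-like, immature or mature GABAergic-like, or Cajal-Retzius-like. Immature and mature GABAergic-like cells were named from separate marker lists, and whether they are stages of the same lineage was not tested. The smallest class, the Cajal-Retzius-like one with 4 and 13 cells, entered no test. The radial glia-like class had 13 and 56 cells and the mature glutamatergic-like class 43 and 239. Median Illumina UMIs per cell ran from 4858 in mature GABAergic-like to 13128 in mature glutamatergic-like cells. The names of 2 clusters rest on low marker scores, a mature glutamatergic-like one with 4 of 10 markers raised and an immature glutamatergic-like one with 4 of 8. The 8 immature glutamatergic markers summed to 1300 CPM in immature and 996 in mature glutamatergic-like cells, and the 10 mature ones to 1884 and 3103. Whether these 2 classes are stages of the same lineage was not tested either. In all, 12 barcodes occurred in both aliquots, and for 11 of them the 2 cells had the same class. Whether they are the same cells was not tested. Without these cells, the Illumina gene-level calls of the 10 genes and the isoform calls of Pkm were the same. Levels are given as CPM, the UMIs of a gene scaled to a common total for each aliquot and class. The summed level of 5 erythroid genes was between 561 and 775 CPM in every class, and its part in the results was not tested.

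The Pkm isoforms differed between progenitor-like and neuronal classes. Of the 5290 Nanopore UMIs of Pkm, 2694 were Pkm-201 (M2) and 2595 were Pkm-202 (M1), and 1 was Pkm-207. In radial glia-like cells Pkm-201 made up 92.2% of the Pkm UMIs in the 190 cell aliquot (83 of 90) and 98.3% in the 951 cell aliquot (618 of 629). The shares were 83.2% and 88.6% in cycling progenitor-like cells, and 78.9% and 82.1% in intermediate progenitor-like cells. In immature glutamatergic-like cells they were 26.8% and 31.6%. Mature glutamatergic-like cells had the lowest shares, 11.9% (28 of 235) and 14.2% (170 of 1199). In GABAergic-like cells the shares were 48.8% and 53.9% in the immature and 27.0% and 26.7% in the mature class. The 3 progenitor classes were thus above every neuronal class in both aliquots.

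**Figure D1:**
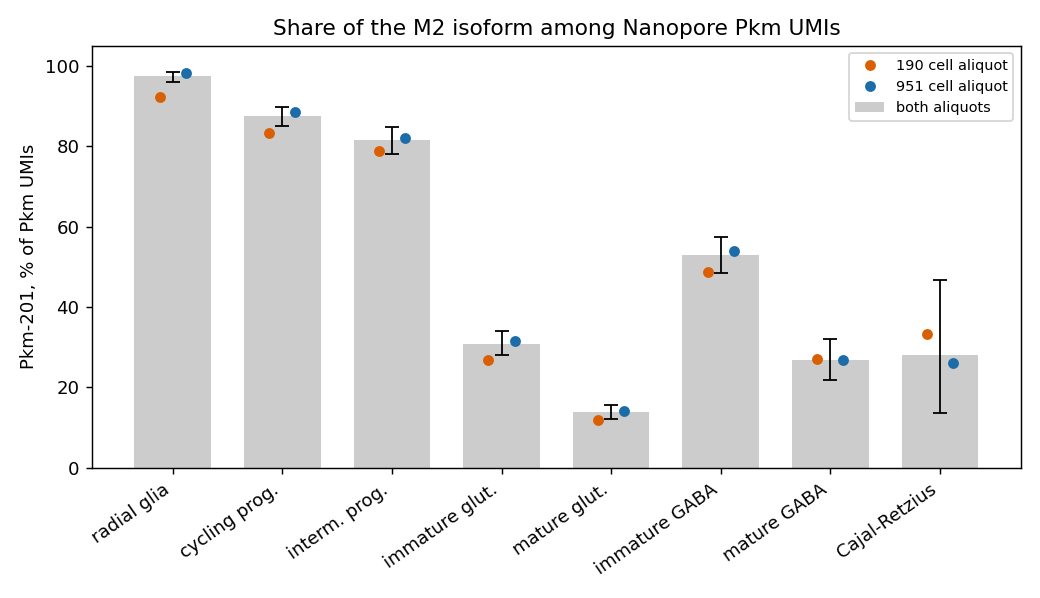
Pkm-201 (M2) in percent of the Nanopore Pkm UMIs of each class. Bars give both aliquots together with the exact 95% binomial interval, and points give the 190 cell and 951 cell aliquots. The share runs from 97.5% in radial glia-like to 13.8% in mature glutamatergic-like cells.

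With both aliquots together and exact (Clopper-Pearson) 95% intervals, which cover counting error only, the classes took the order radial glia-like (97.5%, 96.1 to 98.5), cycling progenitor-like (87.5%, 85.0 to 89.7), intermediate progenitor-like (81.6%, 78.1 to 84.7), immature GABAergic-like (53.0%, 48.5 to 57.5), immature glutamatergic-like (30.9%, 28.0 to 33.9), Cajal-Retzius-like (28.1%, 13.7 to 46.7, from 32 UMIs), mature GABAergic-like (26.8%, 21.8 to 32.2) and mature glutamatergic-like (13.8%, 12.1 to 15.7). The intervals of immature glutamatergic-like, Cajal-Retzius-like and mature GABAergic-like cells overlapped, and those of the other neighbours in this order did not. Within classes, the 2 clusters of immature glutamatergic-like cells had 35.7% (31.7 to 39.9) and 24.5% (20.4 to 29.0), with intervals that did not overlap, the second being the one of low marker score. The 2 mature glutamatergic-like clusters had 14.8% (12.3 to 17.7) and 12.9% (10.5 to 15.5), with overlapping intervals. No test was made between clusters.

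Isoform usage was tested with edgeR's diffSpliceDGE on the UMIs summed per aliquot and class, on the 652 genes of which 2 or more isoforms cleared the count filter. Pkm and Aldoc were the only 2 of the 10 genes that could be tested. Pkm passed in all 6 comparisons made. From radial glia-like to mature glutamatergic-like cells its M2 share fell by 83.7 percentage points (-80.3 and -84.1 in the aliquots; adjusted p = 1.02e-19), where 16.3% of all genes tested were called. To mature GABAergic-like cells the share fell by 70.7 points (adjusted p = 1.09e-15; 13.8% of genes called). In cycling progenitor-like cells it differed by -10.0 points from radial glia-like cells (adjusted p = 0.000125; 3.83% called). Markers of other classes moved with this comparison, since the 8 cycling progenitor markers summed to 1740 CPM in radial glia-like and 3350 in cycling progenitor-like cells, and the 8 immature GABAergic markers to 49.3 and 888. The 8 intermediate progenitor markers summed to 485 and 1063 CPM in these classes, and the 10 radial glia markers to 15031 and 2133. Their part in the difference was not tested. The step from intermediate progenitor-like to immature glutamatergic-like cells, at which the share fell by 50.6 points, gave an adjusted p of 1.04e-09 (4.14% called). From immature to mature glutamatergic-like cells it fell by 17.1 points (adjusted p = 0.00106; 1.99% called), and this call was lost with no filter on low counts (adjusted p = 0.272). Mature GABAergic-like cells were 12.9 points above mature glutamatergic-like cells (adjusted p = 0.0299; 1.84% called), and this call was lost with the Simes p (adjusted p = 0.114) and with no filter. Every difference had the same sign in both aliquots.

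Among single cells with at least 10 Pkm UMIs, the M2 share was high in most radial glia-like cells and low in most mature glutamatergic-like cells. Such cells were 26 of 69 in the radial glia-like class and 37 of 282 in the mature glutamatergic-like class. Of the 120 cells with at least 10 Pkm UMIs, 58 had 80% or more Pkm-201, 35 had 20% or less and 27 lay between. Among 26 such radial glia-like cells, 25 were at 80% or more, and the remaining cell was at 73.9%. The 27 cycling progenitor-like cells ran from 30.0% to 100%, with 22 at 80% or more and 5 between. None of 37 mature glutamatergic-like cells reached 80%, where 28 were at 20% or less and 9 lay between, the highest at 60.0%. The 13 intermediate progenitor-like cells ran from 61.5% to 100%, and the 13 immature glutamatergic-like cells from 0.0% to 63.6%, so these classes overlapped in single cells. Cells with 10 Pkm UMIs are few in the GABAergic-like classes (3 immature and 1 mature), where the median cell had 2. Of the 3 immature ones 2 were at 100% and 1 at 20%, and the mature one was at 72.7%.

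**Figure D2:**
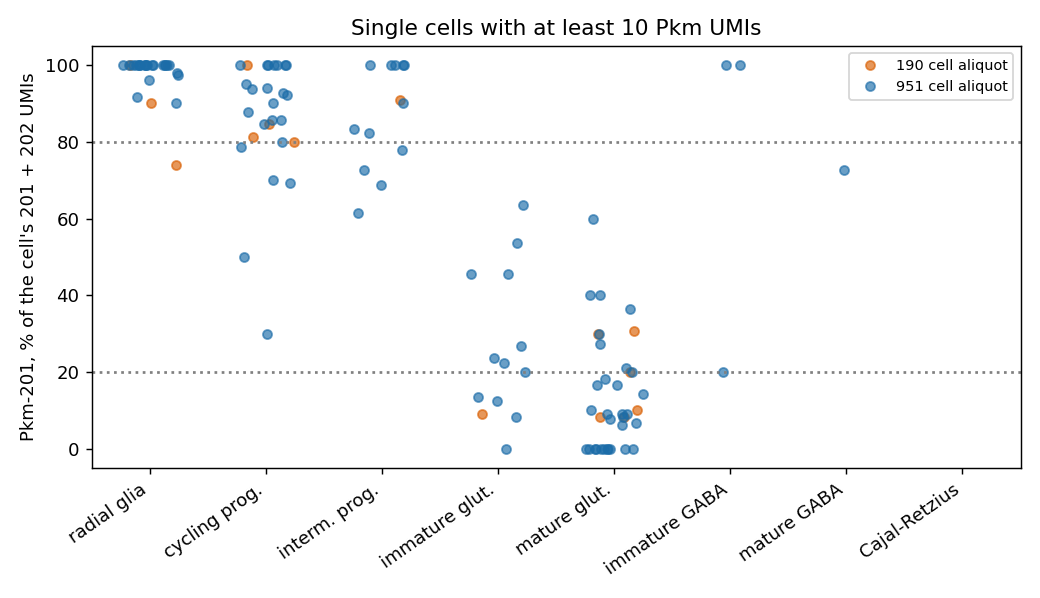
Pkm-201 in percent of a cell's Pkm-201 and Pkm-202 UMIs, 1 point per cell with at least 10 of them, spread sideways for view. Colours give the aliquots, and dotted lines mark 20% and 80%. Most progenitor-like cells lie high and most mature glutamatergic-like cells low. Of the 120 cells 27 lie between the lines, among them 7 of the 13 immature glutamatergic-like cells.

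A measure whose expected value in a cell does not depend on its number of UMIs is the chance that 2 Pkm UMIs are of different forms. It was taken over the 561 cells with at least 4. It was 25.8% for 2 UMIs of the same cell and 49.9% for UMIs of 2 different cells. Between cells of the same class the difference was smaller. It was 5.62% within and 6.33% between cells in the radial glia-like class, 22.6% and 24.9% in the mature glutamatergic-like class, 24.9% and 33.1% in the intermediate progenitor-like class, and 36.9% and 49.8% in the immature GABAergic-like class. These values are a description with no test, and which cells enter does depend on their Pkm UMIs. The cells with at least 4 were 52 of 69 radial glia-like and 174 of 282 mature glutamatergic-like cells. In the GABAergic-like classes they were 54 of 172 immature and 24 of 145 mature cells.

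The total level of Pkm moved far less than its isoforms. By Illumina it was 655 and 875 CPM in radial glia-like cells (190 and 951 cell aliquot), 663 and 759 in cycling progenitor-like, 736 and 851 in intermediate progenitor-like, 586 and 661 in immature glutamatergic-like, and 577 and 542 in mature glutamatergic-like cells. Immature GABAergic-like cells had 532 and 590, mature GABAergic-like cells 498 and 506, and Cajal-Retzius-like cells 260 and 287. The 3 progenitor classes overlapped each other. Gene levels were tested with edgeR's quasi-likelihood test over 8588 genes. Pkm was lower in mature GABAergic-like than in radial glia-like cells (log2 change -0.68, SE 0.18, adjusted p = 0.00269). In mature glutamatergic-like cells the log2 change from radial glia-like cells was -0.42 (SE 0.17) with an adjusted p of 0.0518, which missed the threshold. It passed with the aliquot as a block (-0.47, adjusted p = 3.47e-05) and with DESeq2's size factors (-0.48, adjusted p = 0.0151). It did not pass with DESeq2's Wald test, with no filter on low counts or with doublets left out. On the Nanopore UMIs summed over isoforms, an edgeR fit of 5008 genes, it passed (-0.50, SE 0.15, adjusted p = 0.00514; 39% called). The change of Pkm from intermediate progenitor-like to immature glutamatergic-like cells (-0.38, SE 0.17) missed the threshold at an adjusted p of 0.20. That change passed with the block (-0.39, adjusted p = 0.00448) and missed on the Nanopore sums (-0.40, adjusted p = 0.0857; 10.6% called).

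Of the 10 genes, 9 passed the count filter on the Illumina sums, Pgk1 being the exception. Mature glutamatergic-like cells, set against the radial glia-like class, had 2 of them higher and 3 lower, where 16.9% of all genes were called higher and 17% lower (33.9% in both directions). Mature GABAergic-like cells, set against the same class, had 1 higher and 6 lower (14.8% and 16.7% of all genes, 31.4% in both). Cycling progenitor-like cells had 0 higher and 4 lower than radial glia-like cells (6.4% and 5.72%, 12.1% in both). From intermediate progenitor-like to immature glutamatergic-like cells 1 was higher and 1 lower (4.15% and 4.4%, 8.55% in both). The same held from immature to mature glutamatergic-like cells (2.11% and 1.5%, 3.61% in both). Mature GABAergic-like cells had 0 higher and 3 lower than mature glutamatergic-like cells (3.52% and 5.41%, 8.93% in both). The genes called higher against radial glia-like cells were Eno2 and Hk1 in mature glutamatergic-like and Eno2 in mature GABAergic-like cells. From intermediate progenitor-like to immature glutamatergic-like cells it was Hk1. Eno2 and Hk1 cleared the count filter through neuronal classes, and Aldoc, among those called lower, through progenitor-like ones. Each was thus tested because of classes where it is high.

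**Figure D3:**
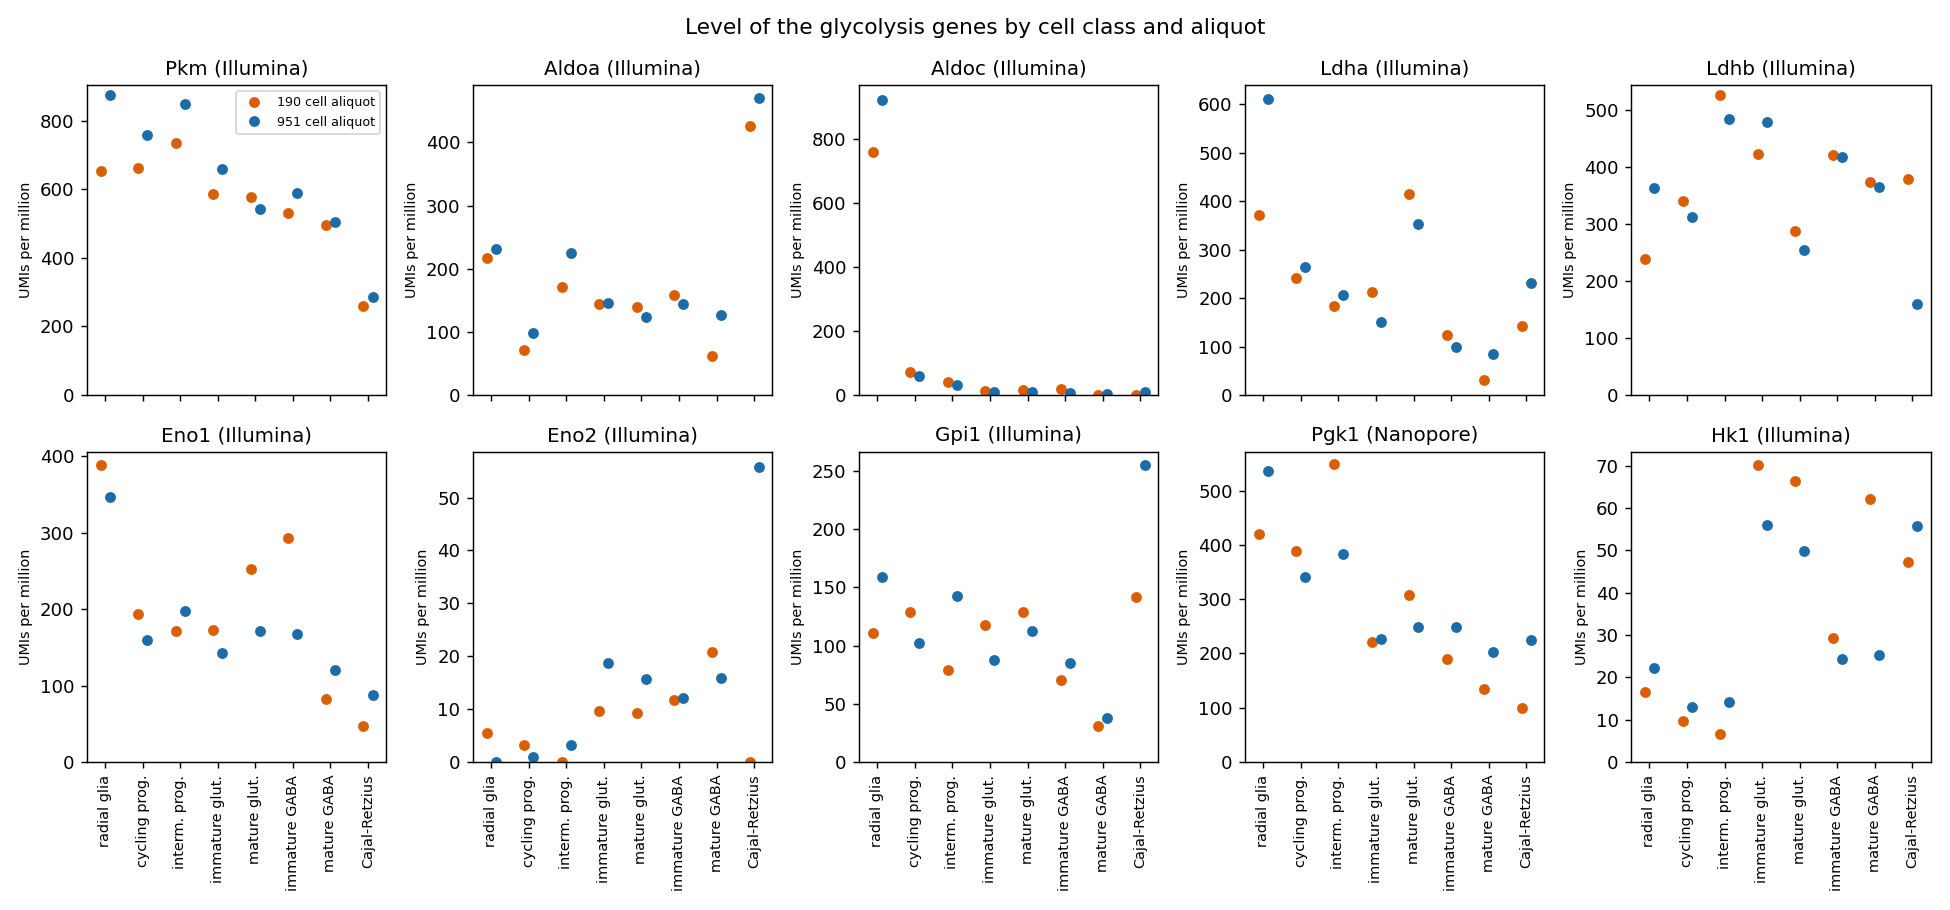
CPM of the 10 genes in 8 cell classes, by Illumina except for Pgk1 (Nanopore). Each point is the sum over the cells of 1 class in the 190 cell or 951 cell aliquot. Aldoc stands at 760 and 924 in radial glia-like cells and at 70.8 or less in every other class.

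Hexokinase and glucose-6-phosphate isomerase act first in the pathway. Hk1, the hexokinase known as the main form of brain, had 16.6 and 22.2 CPM in radial glia-like cells, 6.58 and 14.2 in intermediate progenitor-like cells, 70.1 and 56.0 in immature glutamatergic-like cells and 66.4 and 49.9 in mature glutamatergic-like cells. Both glutamatergic-like classes were above all progenitor classes in both aliquots. Immature GABAergic-like cells had 29.2 and 24.3 CPM, and mature GABAergic-like cells 62.2 and 25.4. Hk1 rose from intermediate progenitor-like to immature glutamatergic-like cells (log2 change 2.23, SE 0.47, adjusted p = 0.00117). Intermediate progenitor-like cells held 1 and 9 of its UMIs, and in the 190 cell aliquot alone the change was 3.37. Hk1 was also higher in mature glutamatergic-like than in radial glia-like cells (1.46, SE 0.40, adjusted p = 0.00338). The second call was lost with DESeq2's Wald test (adjusted p = 0.0835). Hk1 cleared the count filter through neuronal classes, as it had 3 and 19 UMIs in radial glia-like and 3 and 13 in cycling progenitor-like cells. Both rises are thus of a gene that was tested because it is high in neuronal classes. Hk2, another hexokinase, which is on the pathway list, went the other way between the same classes (22.2 and 57.4 CPM in radial glia-like cells, 12.9 and 11.4 in mature glutamatergic-like cells, log2 change -1.92, SE 0.46, adjusted p = 0.00102). Gpi1, the isomerase, had 31.1 and 38.0 CPM in mature GABAergic-like cells, against 111 and 159 in radial glia-like and 129 and 112 in mature glutamatergic-like cells. It was lower in mature GABAergic-like cells than in both (log2 changes -2.0, SE 0.32, adjusted p = 3.62e-06 and -1.77, SE 0.31, adjusted p = 4.99e-05).

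Aldolase splits the six-carbon sugar, and Aldoc, its form in brain, is known from radial glia and astrocytes. Aldoc had 760 and 924 CPM in radial glia-like cells, 70.8 and 60.6 in cycling progenitor-like cells and 39.5 and 30.0 in intermediate progenitor-like cells. In mature glutamatergic-like cells it had 14.7 and 9.55, and in mature GABAergic-like cells 0 and 3.17. From 926 and 34 UMIs, its level in radial glia-like cells was 86.0 times that of mature glutamatergic-like cells (exact 95% interval of the counts 61.1 to 125). Against mature GABAergic-like cells, with 2 UMIs, the ratio was 325 (89.8 to 2692). The tests gave adjusted p = 8.64e-21 and 1.04e-18. The gene fell by 3.66 on the log2 scale (SE 0.24) from radial glia-like to cycling progenitor-like cells (adjusted p = 7.20e-15). From intermediate progenitor-like to immature glutamatergic-like cells it fell by 1.86 (SE 0.41, adjusted p = 0.0018). Aldoc had only 25 and 16 UMIs in these 2 classes, a ratio of 3.61 (1.85 to 7.24). Its second isoform, Aldoc-202, held 9.43% and 7.45% of its Nanopore UMIs in radial glia-like cells. Aldoc cleared the isoform filter through this class (791 UMIs), and with 17 UMIs in intermediate progenitor-like, 2 in immature and 3 in mature glutamatergic-like and 0 in mature GABAergic-like cells, 5 of the 6 comparisons could not detect a change in its isoforms. In the remaining one, Aldoc-202 held 4 of the 63 UMIs of cycling progenitor-like cells, and its usage against radial glia-like cells did not pass (adjusted p = 0.912). Aldoa, the aldolase of muscle and most other tissues, had 216 and 232 CPM in radial glia-like and 70.8 and 98.3 in cycling progenitor-like cells, a log2 change of -1.30 (SE 0.24, adjusted p = 0.000125). It was also lower in mature glutamatergic-like (140 and 123; -0.75, SE 0.22, adjusted p = 0.00671) and mature GABAergic-like cells (62.2 and 127; -1.08, SE 0.25, adjusted p = 0.000807; -1.90 in the 190 cell aliquot alone) than in radial glia-like cells. The first of these was lost with DESeq2's Wald test (adjusted p = 0.0556). In Cajal-Retzius-like cells Aldoa stood at 426 and 471, above every other class in both aliquots.

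Aldoc as a share of the Illumina UMIs of both aldolases was 79.6% (77.2 to 81.9) in radial glia-like, 40.7% (33.9 to 47.8) in cycling progenitor-like, 12.95% (8.56 to 18.5) in intermediate progenitor-like and 7.64% (5.35 to 10.5) in mature glutamatergic-like cells. In the radial glia-like and cycling progenitor-like classes the share by Nanopore was 81.0% and 40.4%.

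**Figure D4:**
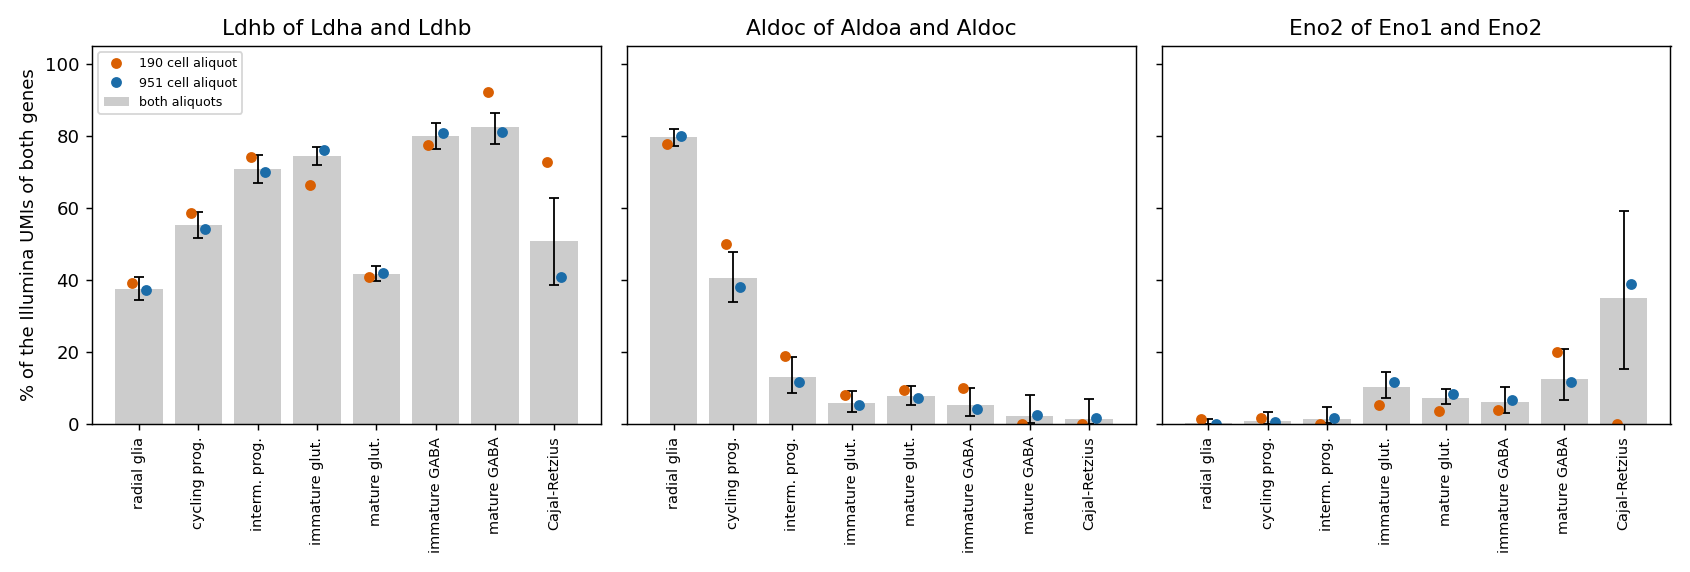
Share of Ldhb, Aldoc and Eno2 in the Illumina UMIs of each pair of isozymes, by class. Bars give both aliquots together with the exact 95% binomial interval, and points give the aliquots. The Ldhb share is 37.5% in radial glia-like, 41.8% in mature glutamatergic-like and 82.4% in mature GABAergic-like cells.

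Phosphoglycerate kinase, encoded by Pgk1, had 74 UMIs by Illumina and 1742 by Nanopore in all cells. The search for Nanopore UMIs was guided by the Illumina data, under which an excess of this size is unexpected, and its source was not tested. By Nanopore it had 420 and 537 CPM in radial glia-like, 307 and 249 in mature glutamatergic-like and 134 and 203 in mature GABAergic-like cells. On the Nanopore sums, a fit of 5008 genes, Pgk1 was lower in mature glutamatergic-like (log2 change -0.83, SE 0.19, adjusted p = 0.000196) and mature GABAergic-like cells (-1.51, SE 0.23, adjusted p = 9.82e-08) than in radial glia-like cells. Of all genes 39% and 36.3% were called in these fits. Pgk1 was also lower in immature glutamatergic-like than in intermediate progenitor-like cells (-0.96, SE 0.21, adjusted p = 0.000614; 10.6% called) and in mature GABAergic-like than in mature glutamatergic-like cells (-0.69, SE 0.23, adjusted p = 0.0358; 10.9% called). It did not pass between cycling progenitor-like and radial glia-like cells (-0.43, adjusted p = 0.12; 15.9% called) or from immature to mature glutamatergic-like cells (0.33, adjusted p = 0.424; 5.57% called).

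Enolase makes phosphoenolpyruvate, the substrate of pyruvate kinase. Eno2, the neuronal enolase, had 115 Illumina UMIs in all. Radial glia-like cells held 1 of them (5.55 and 0 CPM), and mature glutamatergic-like cells 48 (9.22 and 15.8). The ratio of these levels was 15.2 with an interval of 2.60 to 613 (adjusted p = 0.00918). For mature GABAergic-like cells, with 12 UMIs, the ratio was 17.1 (2.53 to 730, adjusted p = 0.0122). Both calls were lost with DESeq2's Wald test (adjusted p = 0.115 and 0.0931). In the 190 cell aliquot, which held the only UMI of radial glia-like cells, the log2 changes alone were 0.76 and 1.76. Eno2 cleared the count filter through neuronal classes, as the radial glia-like, cycling and intermediate progenitor-like classes held 1, 2 and 2 of its UMIs. It was not tested when the glutamatergic-like clusters of low score were left out. Eno1, the enolase of most tissues, had 388 and 347 CPM in radial glia-like cells, 193 and 160 in cycling progenitor-like cells, 253 and 172 in mature glutamatergic-like cells and 83.0 and 121 in mature GABAergic-like cells. Both aliquots of radial glia-like cells were above those of the other classes. The log2 changes from radial glia-like cells were -1.01 (SE 0.23, adjusted p = 0.00205), -0.76 (SE 0.22, adjusted p = 0.00580) and -1.77 (SE 0.25, adjusted p = 7.51e-07). Mature GABAergic-like cells were also below mature glutamatergic-like cells (-1.01, SE 0.25, adjusted p = 0.00531; -1.76 and -0.59 in the 190 and 951 cell aliquots alone), a call lost with DESeq2's Wald test (adjusted p = 0.0828).

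Lactate dehydrogenase interconverts pyruvate and lactate. Ldha, its form of muscle, had 372 and 611 CPM in radial glia-like, 242 and 265 in cycling progenitor-like, 213 and 150 in immature glutamatergic-like, 415 and 353 in mature glutamatergic-like and 31.1 and 85.6 in mature GABAergic-like cells. It rose from immature to mature glutamatergic-like cells (log2 change 1.17, SE 0.25, adjusted p = 0.00465), whereas Ldhb, the form of heart, fell by 0.68 on the log2 scale (SE 0.18, adjusted p = 0.0232). The Ldhb call was lost with DESeq2's Wald test (adjusted p = 0.130) and with no filter (0.0543). Ldhb had 424 and 480 CPM in immature and 288 and 255 in mature glutamatergic-like cells. Mature GABAergic-like cells had less Ldha than mature glutamatergic-like (log2 change -2.49, SE 0.29, adjusted p = 5.34e-07; -3.88 in the 190 cell aliquot alone) and radial glia-like cells (-2.84, SE 0.29, adjusted p = 1.99e-08; -3.68 in that aliquot alone), and cycling progenitor-like cells less than radial glia-like cells (-0.93, SE 0.24, adjusted p = 0.0118). Ldhb passed in none of these 3 comparisons (log2 changes 0.34, 0.18 and 0.13, SE 0.19, 0.20 and 0.19).

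The Ldhb share of both genes' Illumina UMIs was 37.5% (34.4 to 40.7) in radial glia-like, 55.2% (51.6 to 58.8) in cycling progenitor-like, 70.8% (66.8 to 74.6) in intermediate progenitor-like and 74.5% (71.9 to 77.0) in immature glutamatergic-like cells, and 41.8% (39.6 to 44.0) in mature glutamatergic-like cells. Immature and mature GABAergic-like cells had 80.1% (76.4 to 83.5) and 82.4% (77.7 to 86.4). By Nanopore, the radial glia-like and mature glutamatergic-like classes had 39.6% and 43.4%, and the mature GABAergic-like class had 87.1%. The Illumina interval of immature glutamatergic-like cells overlapped those of intermediate progenitor-like and immature GABAergic-like cells. Those of both GABAergic-like classes overlapped, as did those of radial glia-like and mature glutamatergic-like cells. In the 190 and 951 cell aliquots the share was 74.1% and 70.0% in intermediate progenitor-like, 66.5% and 76.2% in immature glutamatergic-like and 92.3% and 81.0% in mature GABAergic-like cells.

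The pathway list holds 41 other genes of glycolysis, pyruvate use and its regulation, of which 17 passed the filter. Against radial glia-like cells, 1 of the 17 rose and 4 fell in mature glutamatergic-like cells (16.9% of all genes called higher, 17% lower, 33.9% in both directions). In mature GABAergic-like cells 1 rose and 5 fell (14.8%, 16.7% and 31.4%), and in cycling progenitor-like cells 0 rose and 3 fell (6.4%, 5.72% and 12.1%). Taken in both directions together, the first 2 counts were near the share of all genes. In each of these 3 comparisons more of the 17 fell than rose, but the counts are at most 5 genes and were not tested as a set. Triosephosphate isomerase, Tpi1, was lower in all 3 (log2 changes -0.67, -1.80 and -0.90), and so was Pgam1, a phosphoglycerate mutase (-0.85, -1.20 and -0.68). The largest falls in mature GABAergic-like cells were those of Hk2 (-2.0), Tpi1 and Pfkl (-1.31). Mpc1, a subunit of the mitochondrial pyruvate carrier, rose in mature glutamatergic-like cells (0.54, SE 0.21, adjusted p = 0.0445). Bpgm, a mutase of bisphosphoglycerate, was higher in mature GABAergic-like than in mature glutamatergic-like cells (1.57, SE 0.36, adjusted p = 0.00205), where Tpi1 was lower (-1.13, SE 0.22, adjusted p = 0.000297). The median log2 change of the 17 was -0.16, -0.10 and -0.39 in the first 3 comparisons, against -0.02, -0.02 and 0.05 over all genes tested. From intermediate progenitor-like to immature glutamatergic-like cells 0 rose and 0 fell (8.55% of all genes called), with a median of -0.06 (0.01 over all). The same counts held from immature to mature glutamatergic-like cells (3.61% called), with a median of 0.14 (-0.001). In mature GABAergic-like against mature glutamatergic-like cells 1 rose and 1 fell (8.93% called), with a median of -0.31 (-0.02).

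Factors known to bind beside the 2 Pkm exons were measured in the same cells. Ptbp1, which is known to repress the M1 exon, had 94.3 and 89.0 CPM in radial glia-like, 99.8 and 80.5 in cycling progenitor-like, 78.9 and 61.7 in intermediate progenitor-like, 22.3 and 25.3 in immature glutamatergic-like and 11.1 and 14.7 in mature glutamatergic-like cells. It was lower in mature glutamatergic-like (log2 change -2.66, SE 0.33, adjusted p = 1.60e-08) and mature GABAergic-like cells (-2.87, SE 0.44, adjusted p = 2.10e-06) than in radial glia-like cells, and lower in immature glutamatergic-like than in intermediate progenitor-like cells (-1.47, SE 0.35, adjusted p = 0.00457). Between cycling progenitor-like and radial glia-like cells, where the M2 share differed, Ptbp1 had a log2 change of 0.01 (SE 0.29, adjusted p = 0.995). Pkm usage was also called from immature to mature glutamatergic-like cells, where Ptbp1 did not pass (-0.76, SE 0.36, adjusted p = 0.338). For mature GABAergic-like against mature glutamatergic-like cells, also called for Pkm usage, Ptbp1 did not pass either (-0.21, SE 0.51, adjusted p = 0.904). Ptbp2, its neuronal relative, was higher than in radial glia-like cells in mature glutamatergic-like (0.88), mature GABAergic-like (1.18) and cycling progenitor-like cells (1.05). Hnrnpa1 and Srsf3 were higher in cycling progenitor-like cells (0.66, adjusted p = 0.00367, and 0.68, adjusted p = 0.00490), and Srsf3 was lower in mature GABAergic-like cells (-0.50, adjusted p = 0.0260). Hnrnpa2b1 passed in none of the 6 comparisons (log2 changes from -0.32 to 0.49). Whether any of these levels bears on the Pkm exons was not tested.

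The isoforms whose pattern over the 16 sums per aliquot and class was most like that of Pkm-201, among 5040 isoforms of other genes with at least 100 UMIs, belonged to Emg1 (Pearson's r = 0.951), Atp5g2 (0.949) and H2afv (0.943), with 1 isoform each. Those most like Pkm-202 belonged to Clta (0.976), Mllt11 (0.964) and Crmp1 (0.964). The 16 sums come from 2 libraries, and the values are a description.

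Both platforms counted molecules of the same droplets. The Nanopore counts hold only UMIs assigned to an isoform, whereas the Illumina counts hold the UMIs whose reads were assigned to a gene. The platform differences below therefore include both kinds of assignment, and the part of either was not tested. Over the kept cells, isoform-assigned Nanopore UMIs were 54.9% of the Illumina UMIs in the 190 and 58.9% in the 951 cell aliquot. For Pkm they were 77.6% and 83.1%, for Ldhb 80.1% and 90.2%, and for Hk1 46.2% and 38.2%. Eno1 had 120% and 170%, and Pgk1 had 21 and 53 UMIs by Illumina and 312 and 1430 by Nanopore. Of 9855 genes tested between platforms with edgeR, 50.5% were called (20.2% higher and 30.3% lower by Nanopore), and of the 10 genes 8 were higher and 0 lower by Nanopore. Blocking on the aliquot raised these calls from 1986 to 3240 genes higher and from 2990 to 3732 lower. The log2 differences were 5.40 (SE 0.23, adjusted p = 7.65e-05) for Pgk1, 1.46 (SE 0.13, adjusted p = 0.000667) for Eno1 and between 0.50 and 0.71 for Pkm, Aldoa, Aldoc, Ldha, Ldhb and Gpi1. Eno2 (0.05, SE 0.31) and Hk1 (-0.37, SE 0.21) did not pass, and Hk1 did with the aliquot as a block (-0.40, adjusted p = 0.00536). Of 444 windows of 57 bases in the last 500 bases of the main transcript, 318 (71.6%) for Eno1, 95 (21.4%) for Ldhb and 26 (5.86%) for Pgk1 occur in an annotated transcript of another gene, and at most 7 for each of the other 7 genes. Their part in the platform differences was not tested. As Eno1 carries this difference, the Eno2 share of both enolases also depends on the platform, with 12.5% by Illumina and 4.70% by Nanopore in mature GABAergic-like cells.

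**Figure D5:**
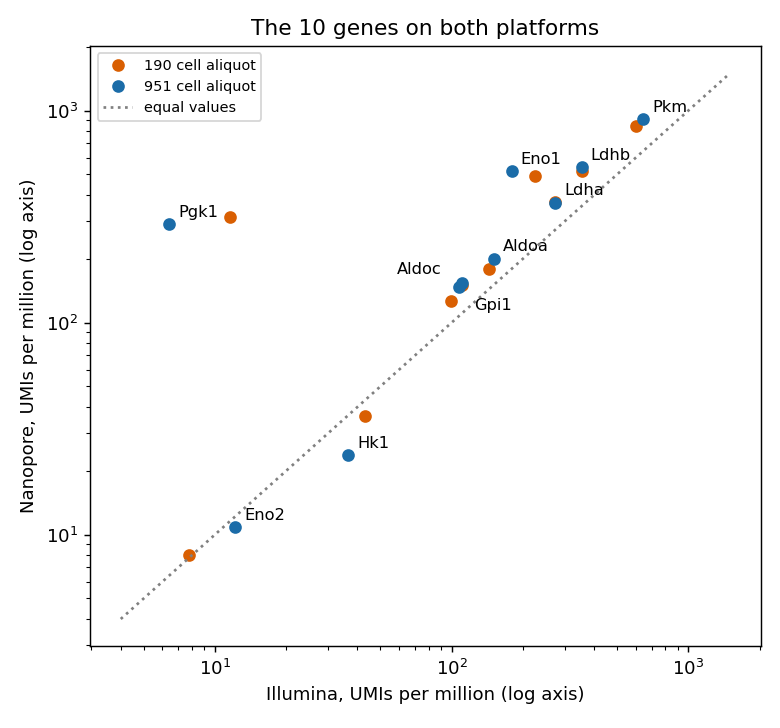
CPM by Illumina (x) and Nanopore (y) for the 10 genes, both on log axes, with 1 point per gene and aliquot over all kept cells. The dotted line marks equal values. Pgk1 and Eno1 lie farthest above it.

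Markers of other cells moved with the classes compared, and their part in the results was not tested beyond the 6 cells left out below. The 6 microglia markers summed to 459 CPM in intermediate progenitor-like cells and to 8.06 or less in each other class. The 5 endothelial markers summed to 89.9 in radial glia-like cells and 17.9 or less in each other class. The 5 markers of the oligodendrocyte lineage summed to 161 in cycling progenitor-like, 71.4 in intermediate progenitor-like and 52.2 in radial glia-like cells and to 16.1 or less in each neuronal class. Without the 6 cells with at least 10 UMIs of the microglia or the endothelial list, Pkm was called in all 6 isoform comparisons, and its lower level in mature glutamatergic-like cells, set against the radial glia-like class, then passed (-0.47, adjusted p = 0.0323).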

How the data were processed

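The authors deposited UMI counts per gene and cell (Illumina, Cell Ranger 2.0, mm10) and UMI counts of each cell per isoform of Gencode vM18 (Nanopore, minimap2 and Sicelore, with the Illumina data guiding the search for barcodes and UMIs). A Nanopore UMI was counted only where its exons matched an isoform in full. Cells with at least 1400 genes were clustered with Seurat 5.3.0 (2000 variable genes, aliquots integrated over 11 dimensions, resolution 0.8), with the 10 genes and the pathway list left out. Clusters were named from a fixed marker list by thresholds set after the clusters were seen (3 markers raised by 0.5 in log2, and a lead of 0.2 over the next list where that list also had 3 raised). With glycolysis genes allowed, 1112 of 1121 cells kept their class. Scrublet called 7 doublets, which were kept. The genes and lists were chosen with earlier results of these data known. All 10 genes, isoforms with at least 5% of a gene's UMIs in a class and the 5 factors could be named. Of the pathway list this held for at most the 3 largest called changes per direction and comparison. Pgam1 in mature GABAergic-like cells was named outside this rule.

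UMIs were summed per aliquot and class, over 7 classes, and tested with edgeR 4.0.16 (TMM, filterByExpr, robust quasi-likelihood F test, diffSpliceDGE for isoforms, Benjamini-Hochberg adjusted p under 0.05). SE is the log2 change over the root of F. Tests were tried on simulated data. Aliquots share 1 emulsion and platforms share droplets, so the aliquot number pairs samples. Deviations of same-numbered samples correlated between 0.140 and 0.336 for genes, between 0.0201 and 0.153 for isoforms, and at 0.597 for platforms. Coordinates and sequences are from Gencode vM21 on GRCm38.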

Additional observations from a re-analysis of the deposited data

How the results depend on the processing

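None of the log2 changes, shares or platform differences of the 10 genes that passed the test turned its direction under any alternative run. Each p rests on 2 aliquots of 1 suspension, and on 13 and 56 cells in the radial glia-like class. Depth shows in the counting intervals, which for the Eno2 ratio of mature glutamatergic-like to radial glia-like cells ran from 2.60 to 613. Classes with a single aliquot leave no test, and the changes without one aliquot are values only. Without replicate 1 or 2, the fall in M2 share from radial glia-like to mature glutamatergic-like cells was -84.1 and -80.3 points.

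The replicate block raised the number of genes called at gene level to 1707 (cycling progenitor-like against radial glia-like, from 1041), 1266 (immature glutamatergic-like against intermediate progenitor-like, from 734), 954 (mature against immature glutamatergic-like, from 310) and 1270 (mature GABAergic-like against mature glutamatergic-like, from 767). For isoform usage it gave 40, 46 and 35 in the first 3 of these in place of 25, 27 and 13. With the block, further calls were Ldha from radial glia-like to mature glutamatergic-like cells (-0.48, adjusted p = 0.0168), Eno2 (2.60, 0.0379) and Aldoa (-0.58, 0.0130) from intermediate progenitor-like to immature glutamatergic-like cells, and Eno1 from immature to mature glutamatergic-like cells (0.43, 0.0316). No call of the 10 genes was lost with the block. The lower level of Pkm in mature glutamatergic-like than in radial glia-like cells also passed with glycolysis genes allowed in the clustering (adjusted p = 0.0453) and without the clusters of low score (0.0199). It stayed uncalled with DESeq2's Wald test, with no filter on low counts, with doublets left out and without the cells whose barcodes occurred in both aliquots.

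DESeq2's Wald test called 1644, 1527, 315, 259, 77 and 319 genes in the 6 comparisons in place of 2912, 2699, 1041, 734, 310 and 767, and 3071 in place of 4976 between platforms. The Simes p called 52, 15, 4 and 5 genes for isoform usage in place of 90, 25, 13 and 12. With no filter on low counts the isoform counts were 192, 16, 13 and 1 in place of 106, 25, 27 and 13. As an alternative chosen after seeing the data, leaving out the glutamatergic-like clusters of low score gave 467 in place of 734 genes from intermediate progenitor-like to immature glutamatergic-like cells. The cause of these differences was not tested.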
